A study of Mus musculus with 2 samples.

Results

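Transcripts of 10 effector genes of basophils, mast cells and eosinophils were examined in RNA sequenced from macrophages sorted out of leukaemic mice. The genes were chosen by name, with earlier results of these data known. They were Mcpt8, Prss34, Cpa3, Hdc, Fcer1a, Ms4a2 and Cd200r3, which serve basophils and mast cells, and Epx, Prg2 and Prg3, which serve eosinophils. All 10 were found among the 16428 genes with at least 1 read in either gene table. The mice were C57BL/6J animals with a stated age of 6 to 8 weeks, which had received 500000 GFP-labelled leukaemia cells each without irradiation. The leukaemia is named as an acute myeloid leukaemia driven by the MLL-AF9 fusion, and mice that carried it survived for 25 to 30 days. Macrophages were sorted on day 15 from bone marrow, which gave 1 library, and from spleen, which gave 1 library, so both tissues came from leukaemic animals. The sources used here do not give the sort markers or how many mice were behind each library. No healthy mice were analysed here.

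The bone marrow library held reads for 15376 genes and the spleen library for 15550 genes, and the scaled depths were 9405947 uniquely placed reads in bone marrow, against 8457857 in spleen. Genes that define macrophages were read in both libraries: Adgre1 (deposited as Emr1), which encodes F4/80, stood at 53.1 CPM in bone marrow, against 142 CPM in spleen, and Csf1r, the main growth factor receptor of macrophages, at 197 CPM in bone marrow, against 364 CPM in spleen. CPM is the read count scaled to the depth of a library. Of 18 macrophage genes, 2 were past 2-fold towards bone marrow and 8 towards spleen, while 14.1% and 14.6% of all genes above a low floor were. The 2 were Lyz2, at 1982 CPM in bone marrow, against 509 CPM in spleen, and Itgam, at 635 CPM in bone marrow, against 156 CPM in spleen. Summed over the 18 genes, the level was 3258 CPM in bone marrow, against 2007 CPM in spleen. With 1 library per tissue there was no replicate check and no test. Every interval below covers counting error only, at the 95% level unless stated, and reads copied by PCR are not independent molecules. In bulk RNA, fewer cells of a type and less RNA per cell cannot be told apart.

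Basophils and mast cells carry IgE on a high-affinity receptor made of an alpha chain (Fcer1a), a beta chain (Ms4a2) and a gamma chain shared with other Fc receptors (Fcer1g). When antigen crosslinks the bound IgE, the cells empty granules that hold histamine, made by the histidine decarboxylase Hdc, and proteases such as Cpa3, Mcpt8 and Prss34. Eosinophil granules instead hold a peroxidase (Epx) and the basic proteins encoded by Prg2 and Prg3. Basophils and eosinophils are made in bone marrow from progenitors that use GATA transcription factors, and their granule proteins are largely made while the cells mature.

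All 10 genes were past 2-fold towards the bone marrow library on the log2(CPM + 1) scale, and all 10 also passed a 4-fold limit. Among all 12970 genes that reached a floor of 1 CPM and 10 reads in either library, 14.1% were past 2-fold towards bone marrow and 4.42% at least 4-fold. The median difference of the 10 genes was 5.03 on the log2 scale, within a range of 2.93 to 6.01, beside a median of 0.03 over all 12970 genes. Together the 10 genes took 24768 reads in bone marrow, which was 0.257% of the library (exact Clopper-Pearson interval 0.254% to 0.261%), and 534 reads in spleen, or 0.00646% (0.00592% to 0.00703%). Ranked by the log2 difference towards bone marrow, Prss34 came 2nd of the 12970 genes, Epx 3rd, Mcpt8 5th, Prg2 7th, Cpa3 11th, Fcer1a 17th and Ms4a2 29th. Hdc came 88th, Prg3 115th and Cd200r3 175th.

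**Figure D1:**
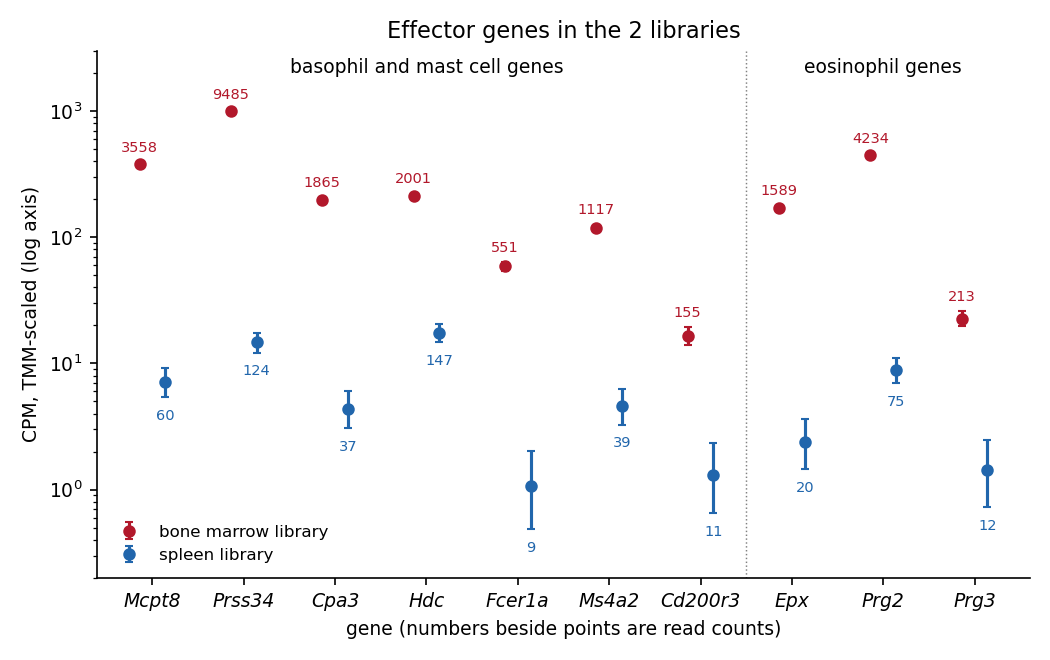
CPM of each of the 10 genes on a log axis, with exact Poisson 95% intervals that cover counting error only, in the bone marrow library (red, left of each pair) and the spleen library (blue), 1 library each. Numbers beside the points are read counts, from 9485 for Prss34 in bone marrow to 9 for Fcer1a in spleen, and each bone marrow point lies above its spleen point.

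The basophil proteases were the most abundant of the basophil and mast cell genes in bone marrow. Prss34 (Entrez gene 328780), a tryptase-like serine protease of basophils, had 9485 reads or 1008 CPM in bone marrow, against 124 reads or 14.7 CPM in spleen. Mcpt8 (Entrez gene 17231), a granzyme-like serine protease used as a marker of mouse basophils, had 3558 reads or 378 CPM in bone marrow, against 60 reads or 7.09 CPM in spleen. Both proteases were abundant in bone marrow and low in spleen. The ratio of Mcpt8 to Prss34 reads was 0.375 in bone marrow, against 0.484 in spleen. The ratio between those values was 0.775, with an interval of 0.462 to 1.34 at a level of 99.9%, adjusted over 45 pairs of genes. That interval included equality, so a difference between the folds of the proteases was not detectable at this depth and level. Per length, in the deposited RPKM (reads scaled to the length of the gene and the depth of the library), Prss34 reached 810 in bone marrow, against 12.3 in spleen, and Mcpt8 437 in bone marrow, against 8.59 in spleen. In bone marrow Prss34 stood 89th and Mcpt8 143rd among all genes ranked by RPKM, and in spleen 6152nd and 7366th.

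Promoters of these proteases are shown because the genes stood among the largest differences and can be read for the short motif that GATA factors bind. Each runs from 250 bases before to 50 bases after the RefSeq start of the gene, 5′ to 3′ along the gene, in build GRCm38.p6 (Prss34, chr17:25298144-25298443, plus strand; Mcpt8, chr14:56085148-56085447, minus strand). Capitals mark matches on either strand to AGATAA or TGATAA, which factors of the GATA family bind, to TTGCNNAA for C/EBP factors or to GAGGAAGT for ETS factors such as PU.1. The Prss34 promoter held AGATAA with its leading base 31 bases upstream of the start, and the Mcpt8 promoter held none of the 4 motifs.
Prss34 promoter: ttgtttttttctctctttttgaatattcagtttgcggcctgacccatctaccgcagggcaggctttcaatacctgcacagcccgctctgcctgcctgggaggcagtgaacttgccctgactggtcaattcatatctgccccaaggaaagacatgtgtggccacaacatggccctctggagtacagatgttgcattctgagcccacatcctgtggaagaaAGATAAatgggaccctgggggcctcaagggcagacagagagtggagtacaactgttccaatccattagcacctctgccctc
Mcpt8 promoter: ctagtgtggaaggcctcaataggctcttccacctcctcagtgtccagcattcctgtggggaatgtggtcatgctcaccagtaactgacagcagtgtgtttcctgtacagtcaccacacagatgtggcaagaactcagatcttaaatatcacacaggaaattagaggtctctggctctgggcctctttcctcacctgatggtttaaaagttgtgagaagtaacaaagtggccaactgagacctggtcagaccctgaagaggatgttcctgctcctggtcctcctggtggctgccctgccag

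Cpa3 and Hdc supply the carboxypeptidase and the histamine of the granules. Cpa3 (Entrez gene 12873), a carboxypeptidase of mast cell and basophil granules, had 1865 reads or 198 CPM in bone marrow, against 37 reads or 4.37 CPM in spleen. Hdc (Entrez gene 15186) had 2001 reads or 213 CPM in bone marrow, against 147 reads or 17.4 CPM in spleen. Both genes were high in bone marrow and low in spleen, and Hdc kept more of its reads in spleen than Cpa3 did. The bone marrow to spleen fold was 12.2 for Hdc (10.3 to 14.6) and 45.3 for Cpa3 (32.8 to 64.6). The ratio of Cpa3 to Hdc reads was 0.932 in bone marrow, against 0.252 in spleen, which is 3.70 times as high in bone marrow, with an interval of 2.04 to 7.20 after adjustment over 45 pairs of genes. Per length, Cpa3 reached 133 RPKM in bone marrow, against 3.07 in spleen, and Hdc 87.4 in bone marrow, against 7.48 in spleen. Hdc thus stood below Cpa3 in bone marrow and above it in spleen.

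The Cpa3 promoter is given because its AGATAA match lay close to the start, as in Prss34: the leading base was 46 bases upstream (chr3:20242132-20242431, minus strand, GRCm38.p6). The Hdc promoter held none of the 4 motifs.
Cpa3 promoter: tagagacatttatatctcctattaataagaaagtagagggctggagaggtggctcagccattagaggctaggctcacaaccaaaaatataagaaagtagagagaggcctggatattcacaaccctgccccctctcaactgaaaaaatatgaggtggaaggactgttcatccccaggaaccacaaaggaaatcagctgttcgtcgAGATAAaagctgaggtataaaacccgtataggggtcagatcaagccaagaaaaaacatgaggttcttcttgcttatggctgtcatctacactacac

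Other genes of histamine handling were mixed. Of 13 listed genes 10 passed the floor of 1 CPM and 10 reads. Of these, 5 were past 2-fold towards bone marrow, against 1 towards spleen, beside 14.1% and 14.6% of all genes. The 5 include Hdc itself and Aoc1 (deposited as Abp1), a diamine oxidase with 10 reads in bone marrow, against 0 in spleen. With that 0 set to the 3 reads that a count of 0 allows, 4 genes were past 2-fold towards bone marrow. The list's median log2 difference was 1.01, and 0.90 with that setting. Slc18a2, the vesicular transporter that loads histamine into granules, had 614 reads or 65.3 CPM in bone marrow, against 44 reads or 5.20 CPM in spleen, a 12.5-fold difference (9.23 to 17.5) close to that of Hdc. Hnmt, which inactivates histamine by methylation, had 145 reads in bone marrow, against 7 in spleen. Slc22a3, an organic cation transporter that can carry histamine, was at 72.7 CPM in bone marrow, against 6.62 CPM in spleen. Srgn, the serglycin proteoglycan of granule matrices in many leukocytes, was at 679 CPM in bone marrow, against 347 CPM in spleen, inside the 2-fold limit. Hrh1, a histamine receptor, had 5 reads in bone marrow, against 42 in spleen.

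The IgE receptor chains that are particular to basophils and mast cells in mice differed between the tissues far more than the shared gamma chain. Fcer1a (Entrez gene 14125), the IgE-binding alpha chain, had 551 reads or 58.6 CPM in bone marrow, against 9 reads or 1.06 CPM in spleen. Ms4a2 (Entrez gene 14126), the signal-amplifying beta chain, had 1117 reads or 119 CPM in bone marrow, against 39 reads or 4.61 CPM in spleen. Fcer1g had 1909 reads or 203 CPM in bone marrow, against 1214 reads or 144 CPM in spleen. Both Fcer1a and Ms4a2 were low in spleen, where Fcer1g was not. The folds towards bone marrow were 55.1 for Fcer1a (28.8 to 121), 25.8 for Ms4a2 (18.7 to 36.4) and 1.41 for Fcer1g (1.32 to 1.52). Per length, RPKM in bone marrow was 55.8 for Fcer1a, 42.1 for Ms4a2 and 290 for Fcer1g, and in spleen 1.06, 1.71 and 215. Fcer1g is also expressed by macrophages, which use it for IgG receptors. The folds of Fcer1a and Ms4a2 had a ratio of 2.14 with an adjusted interval of 0.669 to 9.46, which included equality.

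Matches in the promoters of the receptor chains are shown with 11 bases on either side, because Ms4a2 held 3 matches to AGATAA, more than any other of the 9 promoters read (Fcer1a, chr1:173227305-173227332, leading base 92 bases upstream of the start; Ms4a2, chr19:11623740-11623767 and chr19:11623714-11623741, 37 and 11 bases upstream; GRCm38.p6, minus strand in each). Capitals mark AGATAA, or TTATCT where it lies on the opposite strand. A further Ms4a2 match lay 224 bases upstream.
Fcer1a at 92 bases: caaccctattaTTATCTctggagaaagc
Ms4a2 at 37 bases: agcctggagacTTATCTgacaagtaggt
Ms4a2 at 11 bases: gttccgcatgaAGATAAtcattggtatt

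Genes that carry the signal of the IgE receptor inside the cell did not follow the alpha and beta chains. Of 20 such genes, all past the floor, 1 was at least 2-fold higher in bone marrow, 4 in spleen and 15 lay within 2-fold, beside 14.1% and 14.6% of all genes. The median log2 difference was -0.36. With library totals in place of TMM scaling the counts were 0 in bone marrow, against 7 in spleen. Gab2, an adaptor of the receptor, was the gene higher in bone marrow, at 59.5 CPM against 28.8 CPM in spleen. Syk, the kinase recruited by the gamma chain, was at 454 CPM in bone marrow, against 804 CPM in spleen, and Lyn, the kinase that phosphorylates the chains, at 216 CPM in bone marrow, against 414 CPM in spleen. Lat, an adaptor that T cells use heavily, was at 30.5 CPM in bone marrow, against 133 CPM in spleen. All 10 of the T cell genes in a marker list were also past 2-fold towards spleen, with a summed level of 223 CPM in bone marrow, against 1604 CPM in spleen. Their part in the value of Lat was not tested.

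Cd200r3 (Entrez gene 74603), an activating receptor of the CD200 receptor family found on basophils and mast cells, was read at low depth in both tissues. It had 155 reads or 16.5 CPM in bone marrow, against 11 reads or 1.30 CPM in spleen, a 12.7-fold difference with a wide interval of 6.89 to 25.9. Its RPKM was the lowest of the 10 genes in both libraries, at 9.93 in bone marrow, against 0.821 in spleen. The related genes Cd200r1 and Cd200r4 beside it on the chromosome lay within 2-fold. Cd200r1, the inhibitory receptor of myeloid cells, had 150 reads in bone marrow, against 116 in spleen. Cd200r4 had 31 reads in bone marrow, against 33 in spleen, and Cd200r2, below the floor, had 8 reads in bone marrow, against 2 in spleen. The Cd200r3 promoter held AGATAA 39 bases upstream of the start (chr16:44943628-44943655, GRCm38.p6, plus strand) and TGATAA and TTGCNNAA, both on the opposite strand, at 115 and 109 bases. The match nearest the start is shown for comparison with those of Prss34 and Cpa3.
Cd200r3 at 39 bases: actggagatgaAGATAAagatagaggaa

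**Figure D2:**
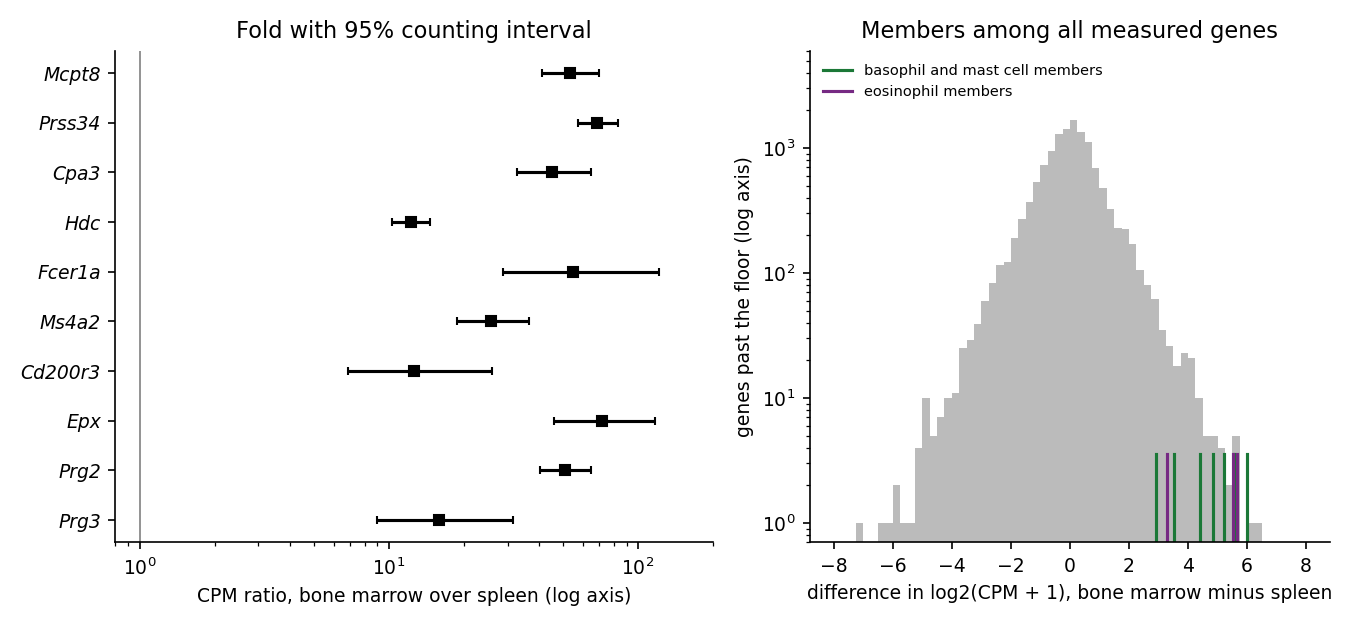
Left, ratio of CPM in bone marrow over spleen for each gene on a log axis with its 95% counting interval, from 12.2 for Hdc to 71.4 for Epx, all to the right of equality. Right, the number of genes past the floor (log axis) at each difference in log2(CPM + 1), bone marrow minus spleen, with the 10 genes as coloured lines between 2.93 and 6.01.

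The eosinophil granule genes were led by Prg2, whose bone marrow level lay between those of the basophil proteases, and all 3 were low in spleen. Prg2 (Entrez gene 19074), the major basic protein that makes up the crystalline core of eosinophil granules, had 4234 reads or 450.1 CPM in bone marrow, against 75 reads or 8.87 CPM in spleen. Epx (Entrez gene 13861), the eosinophil peroxidase, had 1589 reads or 169 CPM in bone marrow, against 20 reads or 2.36 CPM in spleen. Prg3 (Entrez gene 53856), a homologue of Prg2 that lies next to it, had 213 reads or 22.6 CPM in bone marrow, against 12 reads or 1.42 CPM in spleen. Prg2 and Epx were high in bone marrow and low in spleen. Prg3 was low in spleen too, but in bone marrow it ranked only 3750th among all genes by RPKM. Per length, Prg2 reached 525 RPKM in bone marrow, against 10.8 in spleen, Epx 61.3 in bone marrow, against 0.899 in spleen, and Prg3 23.3 in bone marrow, against 1.53 in spleen. Prg2 led in both tissues, and the lowest RPKM of the 3 was that of Prg3 in bone marrow and of Epx in spleen. The bone marrow to spleen folds were 50.8 for Prg2 (40.4 to 64.7), 71.4 for Epx (46.1 to 117) and 16.0 for Prg3 (8.95 to 31.4). The fold of Epx was 4.48 times that of Prg3, with an adjusted interval of 1.13 to 15.6. For Epx against Prg2 the adjusted interval of 0.631 to 3.58 included equality.

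The Epx promoter is printed as that of the eosinophil gene with the largest fold (chr11:87875487-87875786, minus strand, GRCm38.p6), and it held none of the 4 motifs. Prg3 held TGATAA on the opposite strand 123 bases upstream of the start (chr2:84988081-84988108, plus strand).
Epx promoter: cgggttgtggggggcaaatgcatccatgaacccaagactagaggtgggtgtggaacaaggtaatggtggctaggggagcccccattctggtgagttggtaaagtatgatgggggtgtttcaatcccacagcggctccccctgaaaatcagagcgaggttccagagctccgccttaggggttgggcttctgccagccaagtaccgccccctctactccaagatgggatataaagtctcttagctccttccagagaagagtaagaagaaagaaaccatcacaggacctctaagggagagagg
Prg3 at 123 bases: gaaacttttttTTATCAgttctattatc

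Over the 9 promoters that the RefSeq table held, 5 had AGATAA, 2 had TGATAA and 6 had at least 1 of these GATA motifs. Among all 32851 promoters of the same length 11.2% held AGATAA, 9.05% TGATAA and 18.6% either. TTGCNNAA was found in 2 of the 9, Fcer1a and Cd200r3, beside 10.8% of all promoters, and GAGGAAGT in 0 of the 9, beside 3.20%. The 6 promoters with AGATAA or TGATAA were those of Prss34, Cpa3, Fcer1a, Ms4a2, Cd200r3 and Prg3, and the 3 with neither were those of Mcpt8, Hdc and Epx. Other variants, such as the TGATAG that the Hdc promoter holds, were not counted. Genes with and without AGATAA or TGATAA stood among both the larger and the smaller folds. The 9 promoters were poor in CpG, with a median of 2 CpG pairs in 300 bases and a range of 0 to 5, beside a median of 7 over all promoters. Their median GC content was 49.7%, beside 52.7%. A match is a description of these letters and not of binding.

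The makeup of the 10 genes' reads differed between the libraries, mainly in Hdc and Prss34. Prss34 made up 38.3% of their reads in bone marrow (37.7% to 38.9%) and 23.2% in spleen (19.7% to 27.0%). Hdc made up 8.08% in bone marrow (7.74% to 8.43%) and 27.5% in spleen (23.8% to 31.5%). Mcpt8 held 14.4% in bone marrow (13.9% to 14.8%) and 11.2% in spleen (8.68% to 14.2%), and Ms4a2 4.51% in bone marrow (4.25% to 4.78%) and 7.30% in spleen (5.24% to 9.85%). Shares of this kind do not depend on how the libraries are scaled to each other.

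**Figure D3:**
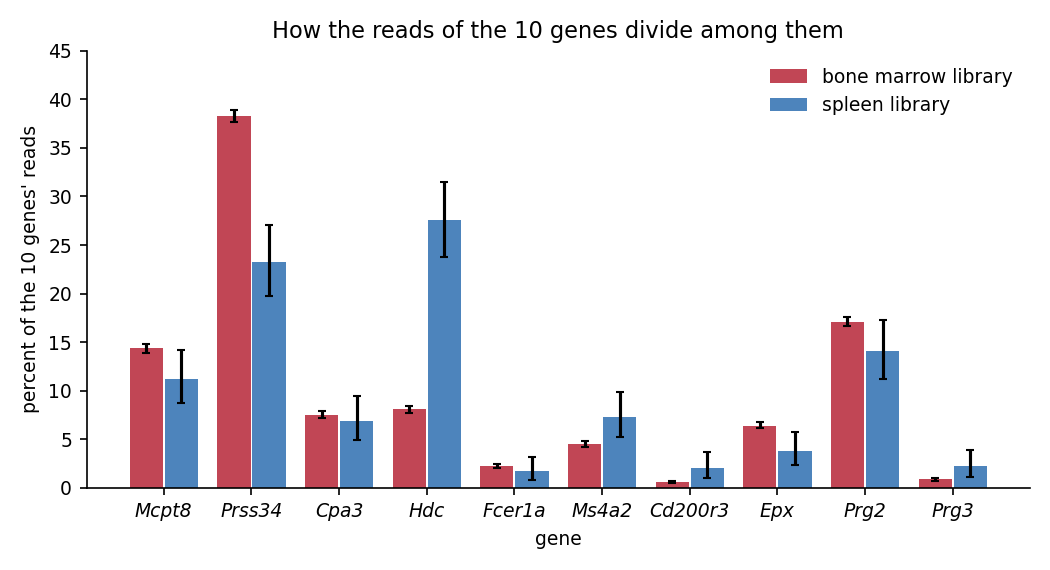
Percent of the reads of the 10 genes taken by each gene, in the bone marrow library (red, left bar, 24768 reads) and the spleen library (blue, right bar, 534 reads), with exact 95% binomial intervals. Prss34 takes 38.3% in bone marrow and 23.2% in spleen, and Hdc 8.08% in bone marrow and 27.5% in spleen.

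Setting the folds of the genes against each other, pair by pair, 16 of 45 pairs had an interval that excluded equal folds, at a level of 99.9% adjusted over the pairs. Hdc was part of 7 of the 16, and 9 of the 36 pairs without Hdc excluded equality. Hdc had a smaller fold than Mcpt8, Prss34, Cpa3, Fcer1a, Ms4a2, Epx and Prg2, and was not separable from Cd200r3 or Prg3. Ms4a2 and Cd200r3 each had a smaller fold than Mcpt8, Prss34 and Epx, and Cd200r3 also than Prg2. Prg3 had a smaller fold than Prss34 and Epx. No pair among Mcpt8, Prss34, Cpa3, Fcer1a, Epx and Prg2 excluded equality, which does not show that their folds were equal. For Prss34 against Epx, a basophil and an eosinophil gene, the ratio of folds was 0.963 with an interval of 0.390 to 2.05. Summed over genes, the 7 basophil and mast cell genes were 39.4-fold higher in bone marrow (35.8 to 43.5) and the 3 eosinophil genes 50.7-fold higher (41.9 to 62.0). The ratio of those folds was 0.778 (0.622 to 0.965), and 1.06 (0.838 to 1.33) without Hdc. Hdc had the smallest fold of all (12.2), while Prg3, with the smallest eosinophil fold (16.0), was kept, so the second ratio depends on that choice. Prss34 held 9485 of the 18732 bone marrow reads of the basophil and mast cell genes, and Prg2 4234 of the 6036 of the eosinophil genes.

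**Figure D4:**
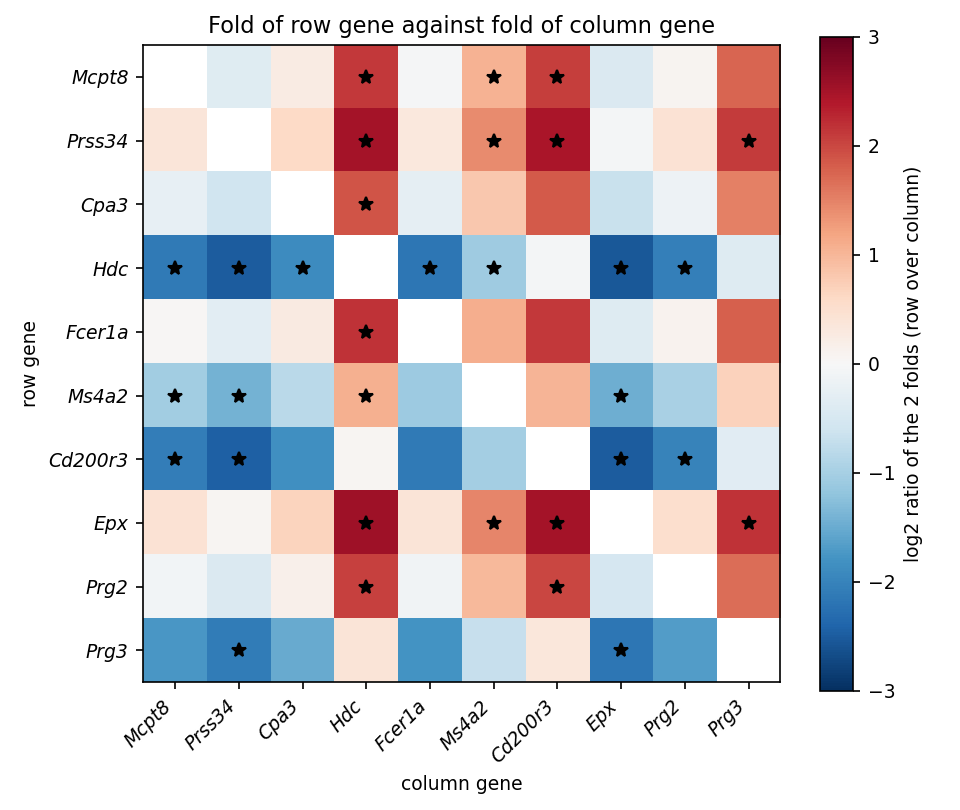
Colour shows the log2 ratio of the row gene's fold (bone marrow over spleen) to the column gene's fold, red where the row gene's fold was larger. Stars mark the 16 of 45 pairs whose adjusted interval excluded equality, 7 of which involve Hdc.

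Reads lay along most of each gene in bone marrow. The deposited covered share was between 84.5% of the length for Cd200r3 and 99.9% for Prg3. In spleen it was 97.7% for Prg2, 92.2% for Prss34, 91.5% for Mcpt8, 90.2% for Hdc, 66.8% for Cpa3, 50.7% for Ms4a2, 41.4% for Prg3, 38.1% for Fcer1a, 33.7% for Epx and 18.1% for Cd200r3. Each was set beside the genes of like length and like reads per base (each at least 0.8 times the other), of which there were 4 to 8 in bone marrow for Prg2, Mcpt8 and Prss34. Cd200r3 lay below the lower quartile of its like genes in both libraries, at 84.5% against a median of 92.6% (quartiles 86.1% and 95.1%) in bone marrow and 18.1% against 26.0% (21.9% and 28.8%) in spleen. The other 9 genes were at or above the lower quartile of their like genes in both libraries.

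Proteases particular to mast cells had few reads or none, in both libraries. Of 19 mast cell genes 9 had no read in either library, among them Mcpt2, Mcpt4, Tpsab1, which encodes a tryptase, Tph1, which starts serotonin synthesis, and Mrgprb2, a receptor of connective tissue mast cells. A count of 0 allows up to 0.319 CPM in the bone marrow library and up to 0.355 CPM in the spleen library. That limit holds only for a gene that was counted and whose reads can be placed uniquely. The sources used here do not say which genes were counted. Tpsb2 had 1 read in bone marrow, against 0 in spleen, Cma1, a chymase, had 6 in bone marrow, against 26 in spleen, and Mcpt1 had 0 in bone marrow, against 9 in spleen. Of the 7 genes of this list past the floor, 3 were past 2-fold towards bone marrow, against 2 towards spleen, beside 14.1% and 14.6% of all genes. The 2 towards spleen were Cma1 and Hpgds, a prostaglandin D synthase with 51 reads in bone marrow, against 191 in spleen. The 3 towards bone marrow were Slc18a2, Rab27b, a GTPase of granule release with 128 reads in bone marrow, against 9 in spleen, and Gp49a, an immunoglobulin-like receptor gene with 258 reads in bone marrow, against 76 in spleen. Kit, the stem cell factor receptor of mast cells and progenitors, was at 252 CPM in bone marrow, against 135 CPM in spleen, a 1.87-fold difference (1.74 to 2.01).

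Other genes reported for basophils were mixed. Of 20 past the floor, 10 were past 2-fold towards bone marrow, against 4 towards spleen, beside 14.1% and 14.6% of all genes, with a median log2 difference of 0.92. Cyp11a1, a steroid-synthesis enzyme, had 240 reads or 25.5 CPM in bone marrow, against 12 reads or 1.42 CPM in spleen, a 17.98-fold difference (10.1 to 35.3). Cd63, a granule membrane protein that marks basophil activation and occurs in many leukocytes, was at 328 CPM in bone marrow, against 22.0 CPM in spleen. Ccr3, the eotaxin receptor of eosinophils and basophils, was higher in spleen, with 55 reads or 5.85 CPM in bone marrow, against 256 reads or 30.3 CPM in spleen. Itgb7, an integrin also used by lymphocytes, was at 99.1 CPM in bone marrow, against 414 CPM in spleen. Il4, a cytokine of activated basophils, had 8 reads in bone marrow, against 3 in spleen, and Il13 had 2 reads in bone marrow, against 0 in spleen, and both were below the floor.

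Other eosinophil genes were mixed, and the receptors for eotaxin and interleukin-5 were higher in spleen. Of 15 past the floor 8 were past 2-fold towards bone marrow, against 4 towards spleen, beside 14.1% and 14.6% of all genes, with a median log2 difference of 1.83. One of the 4, Ear12, had 0 reads in bone marrow, against 10 in spleen, and was within 2-fold with its 0 set to 3 reads. Siglecf (deposited as Siglec5), an inhibitory lectin on mature eosinophils, had 283 reads or 30.1 CPM in bone marrow, against 20 reads or 2.36 CPM in spleen, a 12.7-fold difference (8.08 to 21.2). Alox15, a lipoxygenase of eosinophils and some macrophages, had 162 reads in bone marrow, against 9 in spleen. Ear6, an eosinophil-associated ribonuclease, had 96 reads in bone marrow, against 2 in spleen, a ratio of 43.2 (11.6 to 362). The Ear genes are near-identical copies, so their unique reads are uncertain. Il5ra, the receptor chain for the eosinophil growth factor interleukin-5, had 51 reads or 5.42 CPM in bone marrow, against 200 reads or 23.6 CPM in spleen, a ratio of 0.229 in bone marrow over spleen (0.165 to 0.313). B lineage cells can carry Il5ra too, and all 10 B cell markers were past 2-fold towards spleen, with a summed level of 442 CPM in bone marrow, against 5173 CPM in spleen. Their part in the Il5ra value was not tested.

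Transcription factors of these lineages were mixed. Of 19 factors, all past the floor, 4 were past 2-fold towards bone marrow, against 3 towards spleen, beside 14.1% and 14.6% of all genes. The 4 were Gata1, Gata2, Cebpa and Cebpe. Zfpm1, a cofactor of GATA proteins, lay just inside the limit at 139.7 CPM in bone marrow, against 69.4 CPM in spleen, and 5 factors were past it with DESeq2 size factors or with TMM scaling without the listed genes. Cebpb, another C/EBP factor, was within 2-fold at 75.8 CPM in bone marrow, against 60.4 CPM in spleen. Gata2, needed for basophil, mast cell and stem cell development, had 2296 reads or 244 CPM in bone marrow, against 84 reads or 9.93 CPM in spleen, a 24.6-fold difference (19.8 to 30.9). Gata1, needed for eosinophils and red cells, had 292 reads or 31.0 CPM in bone marrow, against 67 reads or 7.92 CPM in spleen, a 3.92-fold difference (3.0 to 5.19). Cebpe, which drives granule genes of neutrophils and eosinophils, was at 199.8 CPM in bone marrow, against 7.21 CPM in spleen. Mitf, a mast cell factor, had 74 reads in bone marrow, against 37 in spleen, and Bhlhe41 had 10 in bone marrow, against 192 in spleen.

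Cytokine receptors of these cells showed no common direction. Of 15 listed genes, all past the floor, 4 were past 2-fold towards bone marrow, against 5 towards spleen, beside 14.1% and 14.6% of all genes, and the median log2 difference was 0.56. The list also holds the cytokine Tslp, which is 1 of the 4, with 20 reads in bone marrow, against 2 in spleen. The other 3 were the receptor genes Il1rl1, Il3ra and Il1rap. Il1rl1, the interleukin-33 receptor of mast cells, basophils and other cells, was at 29.0 CPM in bone marrow, against 6.03 CPM in spleen. Il3ra, the chain that binds the basophil growth factor interleukin-3, was at 45.8 CPM in bone marrow, against 19.3 CPM in spleen. Csf2rb, the signalling chain shared by the receptors for interleukin-3, interleukin-5 and GM-CSF, was at 322 CPM in bone marrow, against 171 CPM in spleen, within 2-fold. Il9r had 7 reads in bone marrow, against 420 in spleen.

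**Figure D5:**
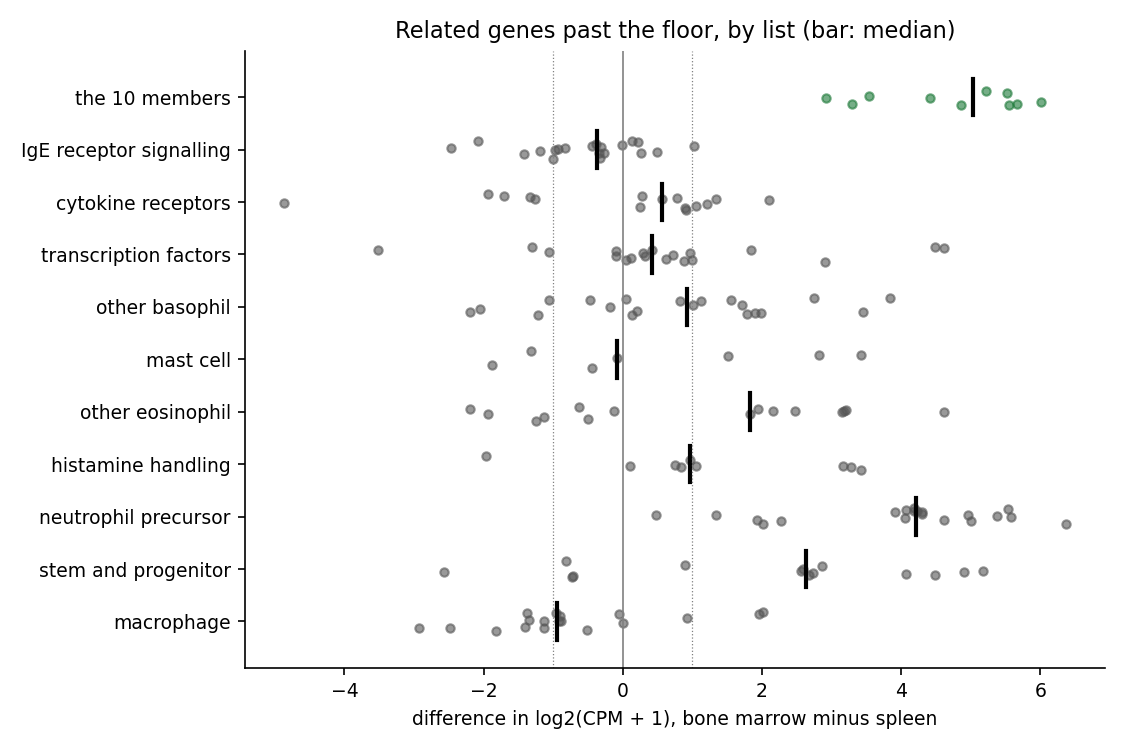
Difference in log2(CPM + 1), bone marrow minus spleen, for each gene past the floor in the lists named on the left, without the 10 genes themselves where a list holds them. Black bars are medians, dotted lines mark 2-fold, and the 10 genes (green, median 5.03) and the neutrophil precursor genes (median 4.21) lie farthest to the right.

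Bone marrow also held higher levels of granulocyte precursor and progenitor markers. In the list of neutrophil precursors, 20 genes reached the floor and 19 were past 2-fold towards bone marrow, against 0 towards spleen, beside 14.1% and 14.6% of all genes, with a summed level of 52545 CPM in bone marrow, against 2525 CPM in spleen and a median log2 difference of 4.21. Ly6g had no read in either library, and the sources used here do not say whether it was counted. Of 14 stem and progenitor genes, 9 were past that limit towards bone marrow, against 1 towards spleen, beside the same shares of all genes, with summed levels of 1788 CPM in bone marrow, against 723 CPM in spleen. Their part in the values of the 10 genes was not tested.

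Neighbours on the chromosome were read to see whether the differences were shared by position. The 3 protein-coding genes on either side of each of the 10 gave 54 distinct genes, of which 16 had no read and 31 passed the floor. Of the 31, 11 were past 2-fold towards bone marrow, against 3 towards spleen, beside 14.1% and 14.6% of all genes. With a count of 0 set to 3 reads, 10 were past it towards bone marrow, since Prss28 was then within 2-fold. Ctsg, the cathepsin G of neutrophil granules and the neighbour of Mcpt8, was at 821 CPM in bone marrow, against 25.4 CPM in spleen, while Mcpt4 on the other side and the granzymes Gzmd and Gzme had no read. Mpo, the neutrophil peroxidase, lies 3 genes from Epx and stood at 8543 CPM in bone marrow, against 103 CPM in spleen, with Lpo between them at 24 reads in bone marrow, against 0 in spleen. Ms4a3, next to Ms4a2, had 3627 reads in bone marrow, against 60 in spleen. On the other side, the adjacent Ms4a6d had 74 reads in each library. Ms4a6b, 3 genes away on that side, had 414 reads in bone marrow, against 1616 in spleen. Beside Prss34, Prss28 had 12 reads in bone marrow, against 0 in spleen, and Prss29 had none.

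The gene whose levels in the 2 libraries were nearest to those of each of the 10 was sought among 10043 other genes with at least 10 CPM in a library, by distance on log2(CPM + 1) over the 2 libraries. Ms4a3, a gene of granulocyte and monocyte progenitors, was nearest to Mcpt8 at a distance of 0.03 and to Prg2 at 0.36. Ctsg was nearest to Prss34 at 0.81, and Eltd1, an adhesion receptor, to Cpa3 at 0.44 and to Epx at 0.36. Hlf, a factor of stem cells, was nearest to Fcer1a at 0.21, and Prom1 to Ms4a2 at 0.22. Emilin1 was nearest to Hdc at 0.10, Celsr3 to Cd200r3 at 0.08 and Lhfpl2 to Prg3 at 0.09. With 2 libraries such likeness is only that of a pair of levels.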

How the data were processed

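RNA sequencing of macrophages sorted from bone marrow (1 library) and spleen (1 library) was used. Each gene has, per the file headers, a deposited count of uniquely placed reads, a length, the covered percent of that length and the authors' RPKM value. The counts were whole numbers from 1 up and summed to the total in each header, so an absent gene had 0 reads. Aligner, counter, genome build and strandedness were not given in the sources used here. Tables were joined on the Entrez identifier, and 16379 of 16428 identifiers matched the RefSeq table of GRCm38.p6, which gave names, neighbours and promoters but no location for the counts.

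Counts were scaled to CPM with TMM factors (bone marrow 0.977, spleen 1.02; edgeR 4.0.16 under R 4.3.3). Differences subtract spleen from bone marrow as log2(CPM + 1), a scale that understates low genes, and a gene past 1 CPM and 10 reads in a library was called higher at 2-fold. Folds are CPM ratios with exact conditional binomial intervals, and pairs of genes were compared by the exact conditional odds ratio (SciPy 1.17.1). The procedure was tested on simulated counts that held counting error only, so the simulation says nothing about variation between animals. The 10 genes, the lists of related genes and cell type markers, and the naming rule were chosen with earlier results of these data known. By that rule all 10 genes are named, with up to 4 genes of each other list, those highest or with the largest difference, and a set of anchor genes (Fcer1g, Kit, Gata1, Gata2, Il5ra and Siglecf). Others named here, the low mast cell and cytokine genes among them, were chosen after their values were seen. The alternatives tried were library totals, size factors from DESeq2 1.42.0, TMM without the listed genes, the deposited RPKM, a 4-fold rule, a floor of 10 CPM or none, and pseudocounts of 0.1 or 5.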

Additional observations from a re-analysis of the deposited data

How the results depend on the processing

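All 10 genes stayed past 2-fold towards bone marrow under the 8 alternatives of scaling, pseudocount, floor and unit and under the 4-fold rule. A pseudocount of 0.1 gave a median log2 difference of 5.56, one of 5 gave 4.06, and it lay between 4.91 and 5.04 under the others. Of 80 single-gene log2 differences under these alternatives, 70 moved from the reported difference by less than the log2 distance from the gene's fold to the bound of its counting interval on that side. The other 10 moved further, all with a pseudocount of 5, and 0 changed direction. The lowest difference was 1.77, for Cd200r3. Values with a floor of 10 CPM or none could not move, because a floor does not enter the difference of a gene. Without the 100 most abundant genes of each library in the denominator, the share of reads was 0.326% in bone marrow and 0.00793% in spleen. Among pairs of genes with at least 10 reads in each library, 15 of 36 excluded equal folds. No paired analysis was possible because each tissue had 1 library and the labels carry no replicate number. With 9 to 20 spleen reads, the folds of Fcer1a, Cd200r3, Prg3 and Epx are limited by depth, and no result has a check between animals. Between scalings the list counts moved by at most 3 genes: library totals put 0 of the IgE signalling genes past 2-fold towards bone marrow, against 7 towards spleen, and DESeq2 size factors put 5 transcription factors towards bone marrow, against 3 towards spleen.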

Other observations

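Of 10 megakaryocyte and platelet genes past the floor, 7 were past 2-fold towards bone marrow, against 0 towards spleen. Among all genes past the floor these shares were 14.1% and 14.6%, which stand beside each count in this paragraph. The median log2 difference of the megakaryocyte and platelet genes was 1.98. Their summed level was 414 CPM in bone marrow, against 92.2 CPM in spleen. Of 8 monocyte genes, 2 were higher in bone marrow, against 1 in spleen, at a median of 0.07. Of 10 dendritic cell genes, 0 were higher in bone marrow, against 8 in spleen, at a median of -2.83. Of 8 NK cell genes, 1 was higher in bone marrow, against 3 in spleen, at a median of -0.35. T cell and B cell genes had medians of -3.08 and -3.61.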
